A study of Homo sapiens with 16 samples.

Results

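Kruppel-like factors (KLFs) are DNA-binding proteins, and the genes described here are 10 of them, KLF2, KLF3, KLF4, KLF5, KLF6, KLF9, KLF10, KLF11, KLF13 and KLF15, chosen by name from the 35810 genes that could be summed from the deposited transcript tables. All 10 passed the filter on low counts that left 16705 genes for testing. The RNA came from pancreatic progenitors made from SA121, a human embryonic stem cell line with the NGN3-GFP genotype, on day 19 of their differentiation. The study followed these cells after latrunculin B, a drug that stops actin from polymerising, to see what happens between the loss of actin filaments and endocrine specification. Every group shares the cell line and the reporter genotype, so the 16 libraries describe 1 line. Control 0 h has 3 libraries, which the labels tag as DMSO (the solvent of the drug) while the series text places them before treatment. Control 24 h has 2 libraries from cells given DMSO. Latrunculin B was given at 0.5 µM, with 3 libraries at 3 h, 3 at 6 h, 2 at 12 h and 3 at 24 h. No DMSO library of 3, 6 or 12 h was analysed here, so at those times the drug and the time since the start cannot be told apart beyond what control 24 h shows. Nothing states that replicates came from separate differentiations, so p-values measure the spread between these libraries, which may be technical.

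KLF proteins bind CACCC elements and GC-rich boxes through zinc fingers near their C terminus, and the closely related SP proteins bind much the same sites. Some members mainly activate transcription and others mainly repress it, by recruiting CtBP or SIN3A with histone deacetylases. Several KLF genes respond within hours to serum, shear stress, cytokines or steroid hormones. In the gut and in other epithelia of endodermal origin, family members are known for their part in the balance between proliferation and differentiation.

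Levels are given as CPM, the estimated reads of a gene scaled to a common library size with TMM factors. Differences are log2 fold changes from edgeR with their standard error (SE), and a gene was called higher or lower at a Benjamini-Hochberg adjusted p under 0.05 over all 16705 genes. The libraries held from 23609727 to 33515398 estimated reads. Over the 16 libraries, KLF3 rested on 3556 to 6964 reads, KLF5 on 2185 to 6044 and KLF6 on 2573 to 8062. At the other end, KLF2 rested on 20 to 87 reads and KLF4 on 52 to 234, so their values carry the most counting error. In bulk RNA, fewer cells of a type and less RNA per cell cannot be told apart.

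Promoters are shown for 4 genes whose levels moved in different ways, to let the sequence be read beside the values. RefSeq windows of the 250 bases before a gene's start (GRCh38.p14) were matched for 8 of the 10 genes by symbol, KLF5 and KLF11 with 2 starts each. KLF3 and KLF10 had no entry. Capitals mark the GC box GGGCGG or its reverse CCGCCC, the E-box CACGTG and the binding site of MEF2. The MEF2 site and CACGTG were added to the search after the windows had been read. The KLF2 window is chr19:16324576-16324825 on the forward strand. The KLF4 window is chr9:107489770-107490019 on the reverse strand, and its RefSeq start lies 713 bases inside the outermost GENCODE start. For KLF6 the stretch chr10:3785282-3785459 on the reverse strand is printed, without the 72 bases nearest to the RefSeq start, which GENCODE annotates as exon. The KLF9 window is chr9:70414658-70414907 on the reverse strand.
KLF2: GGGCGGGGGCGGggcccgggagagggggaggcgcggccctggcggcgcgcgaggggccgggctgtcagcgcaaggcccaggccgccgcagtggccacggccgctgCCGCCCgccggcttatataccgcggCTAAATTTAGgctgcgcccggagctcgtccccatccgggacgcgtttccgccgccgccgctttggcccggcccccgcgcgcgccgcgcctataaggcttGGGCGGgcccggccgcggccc
KLF4: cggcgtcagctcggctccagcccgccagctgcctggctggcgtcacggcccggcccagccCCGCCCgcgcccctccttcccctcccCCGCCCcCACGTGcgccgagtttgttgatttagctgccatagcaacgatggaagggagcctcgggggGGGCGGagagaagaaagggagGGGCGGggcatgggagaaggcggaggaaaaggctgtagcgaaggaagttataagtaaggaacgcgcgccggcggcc
KLF6: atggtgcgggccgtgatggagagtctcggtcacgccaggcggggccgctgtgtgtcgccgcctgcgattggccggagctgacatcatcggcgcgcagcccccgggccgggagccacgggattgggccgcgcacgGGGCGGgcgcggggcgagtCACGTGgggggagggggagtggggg
KLF9: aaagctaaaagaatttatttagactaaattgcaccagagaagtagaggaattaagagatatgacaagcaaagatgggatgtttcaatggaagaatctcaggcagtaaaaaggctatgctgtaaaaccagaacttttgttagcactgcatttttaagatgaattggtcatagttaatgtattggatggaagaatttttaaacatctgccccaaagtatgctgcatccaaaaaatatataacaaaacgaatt

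The KLF2 stretch holds 4 GC boxes and a MEF2 site, KLF4 holds 4 GC boxes and a CACGTG, and KLF6 holds a GC box and a CACGTG. KLF9 stands apart, with none of these motifs and 32.4% G and C. Over the 10 windows the median content of G and C was 73.4%, against 58% over 35116 promoters of the same length. On either strand GGGCGG was in 8 of the 10 windows and in 42.6% of all promoters. The CACCC element was in 4 windows, those of KLF5 (both starts), KLF11 and KLF13, and in 54.7% of all. CACGTG was in 4 windows (KLF4, KLF6, KLF11 and KLF15) and in 6.34% of all, and the MEF2 site in the KLF2 window and in 2.80% of all. The cAMP response element TGACGTCA was in 1 KLF11 window and in 1.65% of all. Neither the CArG box of SRF (1.16% of all) nor the TEAD element GGAATG (11.9% of all) was in any of the 10 windows. A match is a description of the letters and not a binding site, and these motifs do not overlap each other in the printed stretches.

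Before treatment the family was led by KLF5, KLF3 and KLF6. On the TPM scale, which corrects for transcript length, control 0 h had 57.4 ± 4.13 TPM of KLF5 (SD, n = 3), 49.3 ± 1.54 of KLF3 and 47.0 ± 2.13 of KLF6. The libraries of KLF3 and KLF6 overlapped in level, while those of KLF5 lay above both. KLF10 followed with 15.4 ± 0.99 TPM and KLF13 with 8.88 ± 0.93. KLF11 had 4.64 ± 0.71 TPM, KLF15 had 3.74 ± 0.18 and KLF9 had 2.96 ± 0.24, each apart from its neighbour. KLF2 (1.20 ± 0.51 TPM) and KLF4 (1.01 ± 0.19 TPM) came last and overlapped. Control 24 h kept KLF5 first and KLF2 and KLF4 last.

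The order of levels changed with the drug. At 3 h KLF6 (96.0 ± 4.10 TPM, SD, n = 3) and KLF5 (94.6 ± 3.48 TPM) overlapped at the top, above KLF3 (68.0 ± 1.13 TPM). At 24 h KLF6 (59.2 ± 9.51 TPM), KLF3 (48.7 ± 1.42 TPM) and KLF5 (46.9 ± 3.47 TPM) followed each other with overlapping neighbours. KLF4 stood at 3.76 ± 1.19 TPM there, overlapping with KLF15 above it and KLF11 below it, and KLF2 was the lowest of the 10 at 0.719 ± 0.069 TPM.

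**Figure D1:**
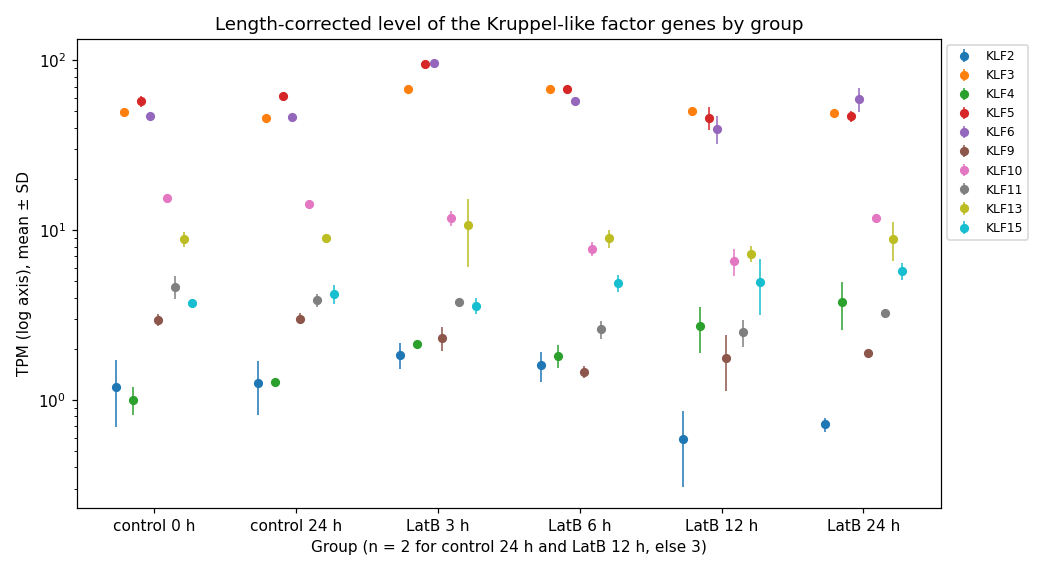
TPM on a log axis by group for the 10 genes, with points at the mean and bars for the SD (n = 2 for control 24 h and latrunculin B 12 h, else n = 3). KLF3, KLF5 and KLF6 stay above the other genes in every group, and KLF4 moves from the bottom at 0 h to the middle of the lower genes at 24 h.

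At 3 h the leading KLF genes were higher with the drug. Of the 10 genes 6 were called against control 0 h, with 31.6% of all genes called: KLF2, KLF3, KLF4, KLF5 and KLF6 were higher (5 of 10, background 16.8%) and KLF10 was lower (1 of 10, background 14.7%). The median log2 change of the 10 was 0.31, against 0.00 over all genes. At 6 h 8 of 10 were called (background 43.3%), with 5 higher (KLF2, KLF3, KLF4, KLF5 and KLF15, background 22.9%) and 3 lower (KLF9, KLF10 and KLF11, background 20.4%). At 12 h 5 of 10 were called (background 35.8%), with KLF4 higher (background 19.1%) and KLF5, KLF9, KLF10 and KLF11 lower (background 16.8%). These 3 comparisons share the libraries of control 0 h. At 24 h, against control 24 h, 5 of 10 were called (background 40.8%), with KLF4, KLF6 and KLF15 higher (background 21.9%) and KLF5 and KLF9 lower (background 18.8%). The counts at 12 h and 24 h lie near the background and are no result about the family as such. The 10 genes were chosen with earlier results of these data known. The larger counts at 3 h and 6 h therefore describe these 10 genes and are no test of the family either. The count at 24 h was 2 without control 24 h replicate 1 and 3 without latrunculin B 24 h replicate 3.

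The controls themselves moved little. Between control 24 h and control 0 h, 0 of the 10 genes were called by edgeR (background 0.251%), with 0 higher (background 0.0299%) and 0 lower (background 0.221%). At an unadjusted p under 0.05 there was 1, KLF2, with a log2 change of 0.59 (SE 0.27) and both libraries above all of control 0 h, and DESeq2 called 0. The median log2 change of the 10 was 0.00.

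**Figure D2:**
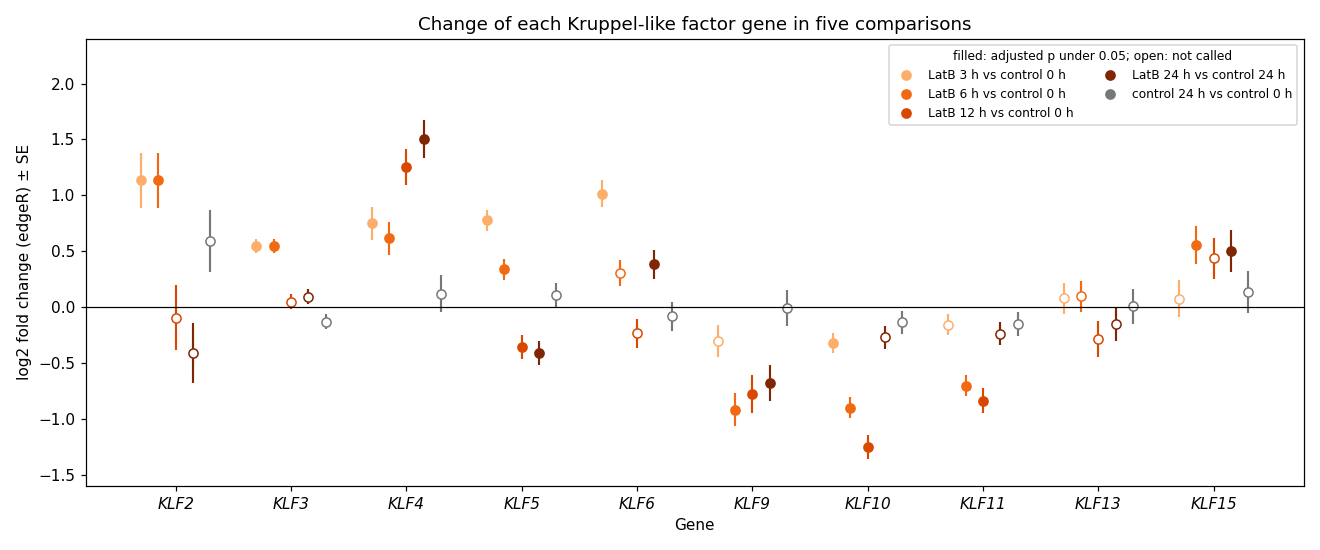
Log2 fold change of each gene in 5 comparisons from the edgeR fit, with bars for the SE and filled points where the adjusted p was under 0.05. KLF4 is the gene that is filled above zero at all 4 times of drug treatment, KLF9, KLF10 and KLF11 lie below zero at 6 h and 12 h, and the grey control points are all open.

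KLF6 had the largest early rise among the abundant members. It encodes an activator that is induced after injury to tissue and is known to act on TGFB1 and ENG (ENSG00000067082.15, chromosome 10, 3775996 to 3785281, GRCh38). Its CPM was 128, 120.2 and 127 in control 0 h and 117 and 119 in control 24 h. With latrunculin B it was 258, 262 and 240.0 at 3 h, 158, 155 and 150.4 at 6 h, 126 and 87.0 at 12 h, and 171, 128 and 163 at 24 h. All libraries of 3 h thus lay above every library of any other group, and those of 12 h reached down to the lowest value of the series. The log2 change at 3 h was 1.02 (SE 0.12, edgeR adjusted p 2.68e-05), and from 3 h to 6 h KLF6 fell by 0.71 (SE 0.12, edgeR adjusted p 0.000906). The value of 6 h was 0.30 above control 0 h with an edgeR adjusted p of 0.0506 (SE 0.12), not called, though all 3 libraries lay above all 3 of the control and DESeq2 called it (adjusted p 0.0314). At 24 h KLF6 was higher than control 24 h by 0.38 (SE 0.13, edgeR adjusted p 0.0327). That call was lost in 9 of 15 alternatives. Among them was leaving out latrunculin B 24 h replicate 1 (0.30, adjusted p 0.105) or 3 (0.34, adjusted p 0.0919). Leaving out control 24 h replicate 1 or 2 lost it too, with changes of 0.37 and 0.40. Further ones were an offset for transcript length (adjusted p 0.0567) and limma-trend on log2(TPM + 1) or log2(TPM + 0.1) (adjusted p 0.0529 and 0.0531). Fits of the compared groups alone (adjusted p 0.0539) and against control 0 h (0.30, adjusted p 0.0543) lost it as well. At 12 h the change was -0.24 (edgeR adjusted p 0.185), but with replicate 1 of 12 h left out KLF6 was called lower (-0.53, adjusted p 0.00452).

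KLF5, a factor known for the proliferation of epithelial progenitors, rose early and was low late (ENSG00000102554.14, chromosome 13, 73054976 to 73077541). The controls held 121, 107 and 110.2 CPM at 0 h and 123 and 119.9 CPM at 24 h. Drug libraries held 180.2, 193 and 206 CPM at 3 h, 143, 148 and 137 CPM at 6 h, 103 and 73.9 CPM at 12 h, and 95.6, 92.0 and 86.4 CPM at 24 h. The libraries of 3 h and 6 h were above all controls and those of 12 h and 24 h below all of them. KLF5 was higher by 0.78 at 3 h (SE 0.10, edgeR adjusted p 4.31e-05) and by 0.34 at 6 h (SE 0.10, edgeR adjusted p 0.0110). It was lower by -0.35 at 12 h (SE 0.11, edgeR adjusted p 0.0212) and by -0.41 at 24 h (SE 0.11, edgeR adjusted p 0.0070). The fall from 3 h to 6 h was -0.44 (SE 0.09, edgeR adjusted p 0.00516) and that from 6 h to 24 h was -0.64 (SE 0.10, edgeR adjusted p 0.000176). The call at 6 h was lost against control 24 h (0.23, adjusted p 0.105) and without control 0 h replicate 2 or latrunculin B 6 h replicate 2. Those at 12 h and 24 h rest on single libraries too, and the one at 12 h also on the method. It was lost with an offset for transcript length (-0.31, adjusted p 0.0534) and in a fit of the compared groups alone (-0.37, adjusted p 0.137). Without latrunculin B 12 h replicate 2 the change at 12 h was -0.13 (adjusted p 0.271), without control 0 h replicate 1 it was -0.30 (adjusted p 0.0668), and without control 24 h replicate 1 the change at 24 h was -0.39 (adjusted p 0.0569).

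KLF3 encodes a repressor that works through CtBP (ENSG00000109787.13, chromosome 4, 38664197 to 38701517). Its level was 157, 151 and 151 CPM in control 0 h and 138 and 141 CPM in control 24 h. Under the drug it was 223, 219 and 229 CPM at 3 h, 213, 228 and 229 CPM at 6 h, 175 and 142 CPM at 12 h, and 151, 146 and 150.1 CPM at 24 h. This was a plateau over 3 h and 6 h, clear of all other groups, followed by levels of 24 h inside the range of the controls. The log2 change was 0.55 at 3 h (SE 0.06, edgeR adjusted p 2.03e-05) and 0.54 at 6 h (SE 0.06, edgeR adjusted p 1.35e-05). From 6 h to 24 h KLF3 fell by 0.58 (SE 0.06, edgeR adjusted p 1.12e-05). The changes at 12 h (0.05) and 24 h (0.09) were not called. Without latrunculin B 12 h replicate 2, KLF3 was called higher at 12 h (0.19, adjusted p 0.0150). The antisense gene KLF3-AS1 overlaps KLF3 on the opposite strand and is not among the deposited transcripts, and the library kit is not stated to keep the strand, so reads of the 2 cannot be told apart.

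KLF2 showed the same early shape at a level near 1 CPM. It is the shear stress factor of endothelium and a quiescence factor of T cells, and MEF2 proteins are known to drive its promoter, whose window with the MEF2 site is printed above (ENSG00000127528.6, chromosome 19, 16324826 to 16328685). In control 0 h it had 1.12, 1.21 and 1.23 CPM, and in control 24 h 1.66 and 1.91 CPM. The drug libraries had 2.78, 2.71 and 2.32 CPM at 3 h, 2.85, 2.80 and 2.16 CPM at 6 h, 1.57 and 0.676 CPM at 12 h, and 1.33, 1.47 and 1.23 CPM at 24 h. Those of 3 h and 6 h lay above all controls, and those of 24 h lay between the highest library of control 0 h and the lowest of control 24 h. KLF2 was higher by 1.13 both at 3 h (SE 0.25, edgeR adjusted p 0.00318) and at 6 h (SE 0.25, edgeR adjusted p 0.00223), and it fell by 0.95 from 6 h to 24 h (SE 0.24, edgeR adjusted p 0.00742). Against control 24 h the change at 3 h was 0.54 (edgeR adjusted p 0.145) and that at 6 h 0.54 (edgeR adjusted p 0.126). With an offset for transcript length both calls were lost, with 0.73 at 3 h (adjusted p 0.181) and 0.54 at 6 h (adjusted p 0.295). Both were lost too with limma-trend on log2(TPM + 1) or log2(TPM + 0.1). The changes there were 0.39 and 0.66 at 3 h (adjusted p 0.135 and 0.177) and 0.26 and 0.47 at 6 h (adjusted p 0.285 and 0.308). The share of transcript KLF2-201 in the gene's TPM ran from 28.7% to 100% between libraries. The endothelial markers PECAM1, CDH5, KDR, TEK, TIE1 and VWF summed to 8.06 to 9.25 CPM in control 0 h, 6.10 to 8.06 CPM at 3 h and 7.34 to 11.3 CPM at 6 h, with KDR as the 1 of 6 that reached 1 CPM in every library. Their part in the level of KLF2 was not tested.

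KLF4 was the member that stayed high. It is one of the reprogramming factors and is known for barrier formation and the arrest of growth in epithelia (ENSG00000136826.15, chromosome 9, 107484852 to 107490482). The control libraries had 2.43, 1.98 and 2.21 CPM at 0 h and 2.41 and 2.38 CPM at 24 h. With latrunculin B there were 3.64, 3.72 and 3.75 CPM at 3 h, 3.50, 2.99 and 3.65 CPM at 6 h, 4.68 and 5.82 CPM at 12 h, and 7.98, 5.99 and 6.42 CPM at 24 h. Every drug library lay above every control, and those of 12 h and 24 h lay above all of 3 h and 6 h. The log2 changes were 0.75 at 3 h (SE 0.15, edgeR adjusted p 0.00162), 0.62 at 6 h (SE 0.15, edgeR adjusted p 0.00433), 1.25 at 12 h (SE 0.16, edgeR adjusted p 6.16e-05) and 1.50 at 24 h (SE 0.17, edgeR adjusted p 2.00e-05). KLF4 rose by 1.01 from 6 h to 24 h (SE 0.14, edgeR adjusted p 0.00012). The calls at all 4 times held in each alternative of fit, scaling, filter or library left out, but with a log2 threshold of 1 added those at 3 h and 6 h would not be made. A lncRNA, ENSG00000289987, overlaps KLF4 on the opposite strand, is not among the deposited transcripts and could share its reads.

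**Figure D3:**
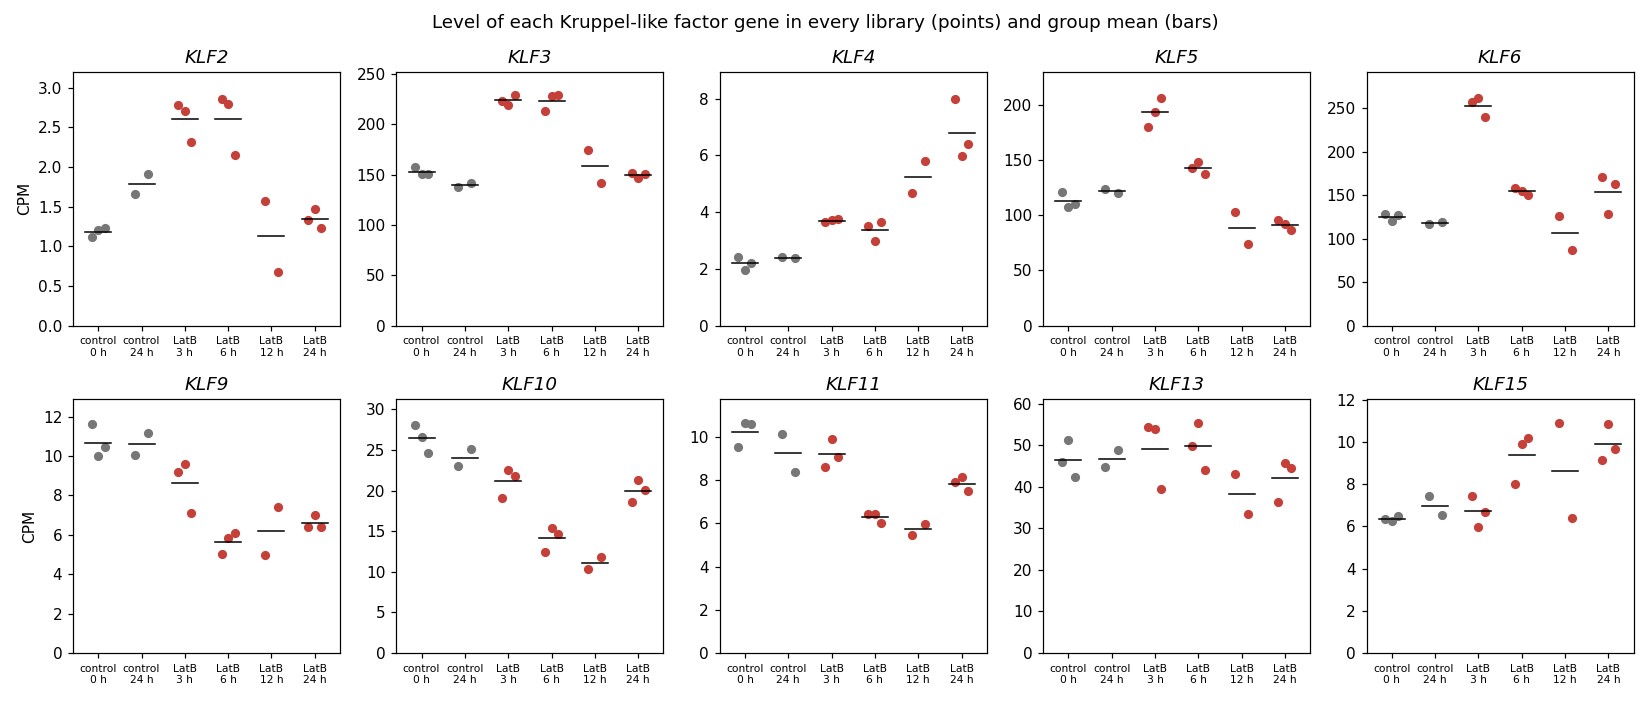
CPM of each gene in every library (points, grey for controls and red for latrunculin B) with the group mean as a bar, each panel with its own axis from 0. KLF2, KLF3, KLF5 and KLF6 peak at 3 h or 6 h, KLF4 climbs to 24 h, and KLF9, KLF10 and KLF11 dip at 6 h and 12 h.

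KLF10 and KLF11 fell and partly came back. Both are early response genes of the TGF-beta pathway and encode repressors that bind SIN3A, and KLF11 is also studied in beta cells for its binding at the insulin promoter. KLF10 (ENSG00000155090.15) had 28.1, 26.5 and 24.6 CPM in control 0 h and 23.0 and 25.1 CPM in control 24 h. Its drug libraries had 19.1, 22.5 and 21.8 CPM at 3 h, 12.4, 15.4 and 14.7 CPM at 6 h, 10.4 and 11.8 CPM at 12 h, and 18.6, 21.3 and 20.1 CPM at 24 h. All of them were below all controls, and the lowest were those of 12 h. KLF10 was lower by -0.32 at 3 h (SE 0.09, edgeR adjusted p 0.0168), -0.90 at 6 h (SE 0.09, edgeR adjusted p 7.67e-06) and -1.25 at 12 h (SE 0.11, edgeR adjusted p 3.03e-06). It rose by 0.50 from 6 h to 24 h (SE 0.09, edgeR adjusted p 0.00110). At 24 h the change against control 24 h was -0.27 with an edgeR adjusted p of 0.0508 (SE 0.10), not called, while it was called with RLE size factors (adjusted p 0.0499) and when replicate 2 of 24 h was left out (adjusted p 0.0446). The call at 3 h was lost against control 24 h (-0.19, adjusted p 0.188) and without control 0 h replicate 1 (-0.28, adjusted p 0.0658) or latrunculin B 3 h replicate 1 (-0.27, adjusted p 0.0587).

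KLF11 followed the same course (ENSG00000172059.11, chromosome 2, 10042849 to 10054836). It had 9.53, 10.6 and 10.6 CPM in control 0 h and 10.1 and 8.36 CPM in control 24 h. Values with the drug were 8.60, 9.92 and 9.06 CPM at 3 h, 6.43, 6.43 and 6.01 CPM at 6 h, 5.47 and 5.99 CPM at 12 h, and 7.92, 8.13 and 7.48 CPM at 24 h. The libraries of 3 h overlapped the controls, while those of the later times lay below them. The log2 change was -0.70 at 6 h (SE 0.10, edgeR adjusted p 6.73e-05) and -0.84 at 12 h (SE 0.11, edgeR adjusted p 7.69e-05). From 6 h to 24 h it rose by 0.32 (SE 0.10, edgeR adjusted p 0.0192). That call was lost without latrunculin B 6 h replicate 3 or 24 h replicate 2. It was also lost without the filter (adjusted p 0.0514) and with the length offset (0.24, adjusted p 0.207). With limma-trend on log2(TPM + 1) or log2(TPM + 0.1) it was lost too (adjusted p 0.141 and 0.137). The change at 24 h was -0.24 (SE 0.11, edgeR adjusted p 0.0897), called without control 24 h replicate 2 (-0.37, adjusted p 0.0354). The lncRNA ENSG00000271787 overlaps KLF11 on the opposite strand, with the same limit as for KLF3 and KLF4.

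KLF9, which glucocorticoid and thyroid hormone are known to induce, fell by 6 h and stayed low (ENSG00000119138.5, chromosome 9, 70384604 to 70414657). Control libraries had 11.6, 9.99 and 10.4 CPM at 0 h and 10.03 and 11.1 CPM at 24 h. Drug libraries had 9.21, 9.60 and 7.12 CPM at 3 h, 5.02, 5.83 and 6.09 CPM at 6 h, 4.99 and 7.41 CPM at 12 h, and 6.41, 6.998 and 6.42 CPM at 24 h. Every drug library was below every control library. The change at 3 h was -0.30 and was not called (SE 0.15, edgeR adjusted p 0.133). It was -0.92 at 6 h (SE 0.15, edgeR adjusted p 0.000263), -0.78 at 12 h (SE 0.17, edgeR adjusted p 0.00300) and -0.68 at 24 h (SE 0.16, edgeR adjusted p 0.00445), and these calls held in each alternative of fit, scaling, filter or library left out. None of the 3 changes reached a log2 threshold of 1. The step from 3 h to 6 h was -0.61 (SE 0.15, edgeR adjusted p 0.0103). With replicate 1 of 6 h left out it was -0.53 (adjusted p 0.0502).

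KLF15, a glucocorticoid-induced factor of amino acid catabolism, was higher at 6 h and at 24 h (ENSG00000163884.4, chromosome 3, 126342635 to 126357408). It had 6.34, 6.27 and 6.49 CPM in control 0 h and 7.42 and 6.54 CPM in control 24 h. With the drug it had 7.45, 5.99 and 6.68 CPM at 3 h, 7.99, 9.91 and 10.2 CPM at 6 h, 10.9 and 6.39 CPM at 12 h, and 9.14, 10.8 and 9.68 CPM at 24 h. The libraries of 6 h and 24 h lay above all controls, and at 12 h replicate 1 was the highest of all and replicate 2 lay inside control 0 h. The change was 0.56 at 6 h (SE 0.17, edgeR adjusted p 0.0158) and 0.50 at 24 h (SE 0.19, edgeR adjusted p 0.0452). Both calls depended on the method and on single libraries. Both were lost with the length offset and with limma-trend on log2(TPM + 1) or log2(TPM + 0.1). Adjusted p in these fits ran from 0.0852 to 0.147 at 6 h and from 0.119 to 0.132 at 24 h. The call at 24 h was also lost without the filter (adjusted p 0.0657) and with the replicate number as a block (adjusted p 0.0733). The one at 6 h was lost against control 24 h (0.42, adjusted p 0.0868) and without control 0 h replicate 2 or latrunculin B 6 h replicate 2 or 3, with adjusted p from 0.0536 to 0.0697. The one at 24 h was lost without either control 24 h library and without latrunculin B 24 h replicate 2 or 3, with adjusted p from 0.0772 to 0.222. Without latrunculin B 12 h replicate 2 KLF15 was called at 12 h (0.77, adjusted p 0.00242).

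KLF13, a factor of late T cell activation that acts on CCL5, was called in none of the comparisons (ENSG00000169926.11, chromosome 15, 31326835 to 31435665). Its lowest library had 33.3 CPM, at 12 h, and its highest 55.5 CPM, at 6 h. Group means ran from 38.3 ± 6.95 CPM (SD, n = 2) at 12 h to 49.8 ± 5.77 CPM (SD, n = 3) at 6 h, beside 46.5 ± 4.47 CPM (SD, n = 3) in control 0 h. As log2 change and SE, KLF13 gave 0.08 and 0.14 at 3 h, 0.10 and 0.14 at 6 h, -0.29 and 0.16 at 12 h, and -0.15 and 0.16 at 24 h. The drug groups overlapped their control at all 4 times.

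Between 3 h and 6 h the edgeR calls among the 10 genes were all downward. Of the 10 genes 5 were lower at 6 h than at 3 h, KLF5, KLF6, KLF9, KLF10 and KLF11 (background 10.3% lower, 22.2% in either direction). By edgeR 0 were higher (background 11.9%), with 1, KLF15, at an unadjusted p under 0.05 and called by DESeq2. Between 6 h and 24 h 6 of 10 were called (background 37.9%), KLF4, KLF10 and KLF11 higher (background 19%) and KLF2, KLF3 and KLF5 lower (background 18.9%).

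The early and the late effect differed for 5 of the 10 genes (background 27.9%). For this the change at 24 h against control 24 h was compared with the change at 3 h against control 0 h in 1 contrast. KLF5 had the largest such difference relative to its error, -1.19 (SE 0.14, edgeR adjusted p 8.01e-05), with its sign turned from higher to lower. KLF2 (-1.54, SE 0.36, edgeR adjusted p 0.00684), KLF3 (-0.45, SE 0.09, edgeR adjusted p 0.00266) and KLF6 (-0.63, SE 0.17, edgeR adjusted p 0.0158) also had a lower change at 24 h than at 3 h. KLF4 alone was called the other way, with 0.75 (SE 0.22, edgeR adjusted p 0.0203). Thus 4 genes were called lower (background 13.4%) and 1 higher (background 14.6%). The call for KLF4 was lost in 7 of 20 alternatives: with an offset for transcript length (0.41, adjusted p 0.445), with limma-trend on log2(TPM + 1) or log2(TPM + 0.1) (0.39 and 0.43), without the filter, and without control 0 h replicate 1 or either library of control 24 h. That for KLF2 was lost with the length offset (-1.504, adjusted p 0.0736) and with limma-trend on log2(TPM + 1) (-0.77, adjusted p 0.0618) or log2(TPM + 0.1) (-1.35, adjusted p 0.0766), and that for KLF6 without control 24 h replicate 2 (-0.62, adjusted p 0.0519). KLF15 had a difference of 0.43 (SE 0.25, edgeR adjusted p 0.228) and KLF9 one of -0.38 (SE 0.22, edgeR adjusted p 0.221), and neither was called.

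**Figure D4:**
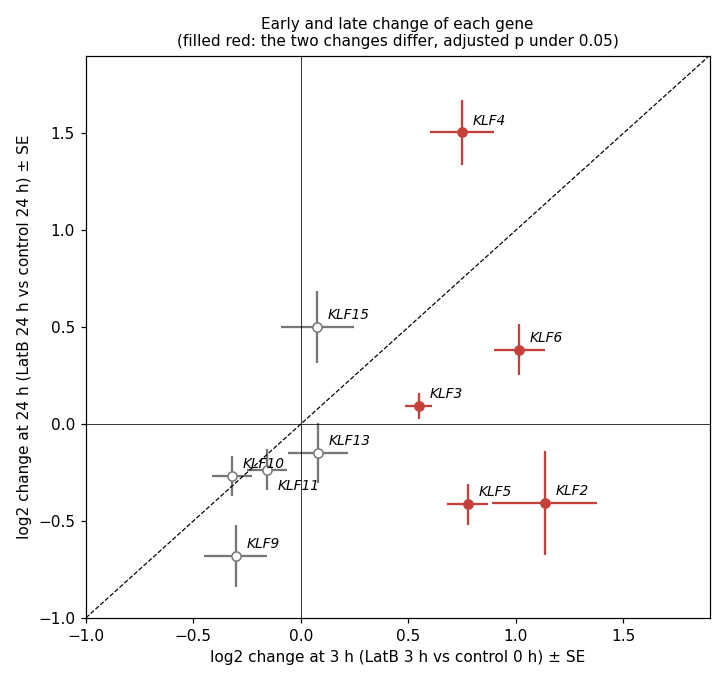
Log2 change at 24 h against control 24 h (y axis) plotted against that at 3 h against control 0 h (x axis), with bars for the SE and a dashed line of equal change. Filled red points, KLF2, KLF3, KLF4, KLF5 and KLF6, are the genes whose difference between the 2 changes passed an adjusted p of 0.05, with KLF4 above the line and the other 4 below it.

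The 12 h libraries need their own account, because they disagreed for several KLF genes. Replicate 2 had 87.0 CPM of KLF6, 73.9 of KLF5 and 0.676 of KLF2, each the lowest of all 16 libraries, while replicate 1 had 126, 103 and 1.57 CPM. Stromal markers (COL1A1, COL1A2, COL3A1, PDGFRB, LUM and DCN) summed to 209.6 CPM in replicate 1 and 1042 CPM in replicate 2, and endothelial markers to 11.2 and 43.2 CPM. Pancreatic progenitor markers summed to 1302 and 1062 CPM. Without replicate 1 the log2 change at 12 h was -0.81 for KLF2 and -0.53 for KLF6, against -0.09 and -0.24 with both. Without replicate 2 it was -0.13 for KLF5 and 0.77 for KLF15, against -0.35 and 0.44 with both. KLF4 was higher and KLF9, KLF10 and KLF11 were lower with either replicate left out. The stromal sums also varied at other times, with 251 to 433 CPM at 3 h and 217 to 293 CPM at 6 h. They were 159 to 261 CPM in control 0 h and 168 to 188 CPM in control 24 h. The part of the stromal and endothelial markers in the KLF levels was not tested at any time.

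Markers of pancreatic progenitors fitted the labels. All 7 of PDX1, NKX6-1, SOX9, FOXA2, ONECUT1, GATA4 and GATA6 had at least 1 CPM in every library, with sums from 1025 to 1437 CPM. Of 7 endocrine markers only CHGA reached 1 CPM in every library, and their sum went from 27.9 to 35.2 CPM in control 0 h and 59.7 to 70.2 CPM in control 24 h to 99.0 to 279 CPM at 24 h of drug. Among 4 blood markers PTPRC stayed under 0.1 CPM everywhere, while LYZ took the sum from 244 to 315 CPM in control 0 h to 1504 to 1791 CPM at 24 h of drug. Among 4 pluripotency markers LIN28A alone reached 1 CPM in every library, with a mean of 401 CPM in control 0 h and 245 CPM at 24 h of drug. The sum over the 4 hepatic markers, ALB, AFP, APOA1 and TTR, ran from 447 to 1436 CPM and that over the 4 neural markers from 8.88 to 24.9 CPM. CD68, another blood marker, had a mean of 3.31 CPM in control 0 h, 3.56 CPM in control 24 h and 2.07 CPM at 24 h of drug. The endocrine sum and LYZ, like KLF4, were thus higher at 24 h of drug than in the controls. Their part in the rise of KLF4 was not tested.

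Most members were represented by a single main transcript. KLF10-201 held 95.8% to 98.8% of the gene's TPM over the libraries, KLF3-201 held 89.7% to 96.6% and KLF6-206 held 68.5% to 80.6%. KLF5 was split between KLF5-201, with 48.3% to 63.2%, and KLF5-205, with 36.8% to 51.7%. In KLF5 the mean share of KLF5-205 was 40.1% in control 0 h, 39.8% at 3 h and 42.4% at 24 h. For the low genes KLF2 and KLF11 the split changed from library to library, down to 28.7% for KLF2-201 and 24.7% for KLF11-201. In KLF4 it also moved with the groups. The mean share of KLF4-201, the protein-coding reference transcript, was 82.5% in control 0 h, 51.9% in control 24 h, 13.1% at 3 h, 24.5% at 6 h, 49.3% at 12 h and 49.5% at 24 h. Its libraries ran from 68.9% to 100% in control 0 h and from 0% to 32.1% at 3 h, without overlap. In TPM, KLF4-201 went from 0.819 ± 0.14 in control 0 h to 0.269 ± 0.34 at 3 h and stood at 1.76 ± 0.31 at 24 h (SD, n = 3 each). At 3 h the retained-intron transcript KLF4-205 had 0.883 ± 0.34 TPM, against 0 in control 0 h, and the coding KLF4-206 had 0.946 ± 0.16, against 0.127 ± 0.22. The rise of KLF4 at 3 h was thus that of the summed gene, while KLF4-201 had a lower mean. These splits are estimates over the 52 to 234 reads of the gene and were not tested.

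The genes closest in profile were sought for KLF4 and KLF6, the members with the widest range of group means (3.00-fold and 2.42-fold). Likeness was the root mean square difference over the 6 group means of log2 CPM, each gene centred on its own mean, among 10438 genes with a mean log2 CPM of at least 3. For KLF4 the closest were HMCN1 (0.0844), GABRB2 (0.104) and RGS5 (0.123), all lowest in control 0 h and highest at 24 h of drug. For KLF6 they were ARID5A (0.111), DUSP8 (0.123) and ART3 (0.151), all highest at 3 h. This is a description over 6 groups.

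Among other genes of the KLF and SP families calls went both ways at 3 h. Of 7 further KLF genes 4 were tested, and at 3 h 1 was higher (background 16.8%) and 2 were lower (background 14.7%). KLF16 rose from 17.6 ± 0.63 to 30.0 ± 2.11 CPM (SD, n = 3 each; log2 change 0.77, SE 0.07, edgeR adjusted p 4.68e-06) and was 0.36 higher at 24 h. KLF7 fell by 0.89 (SE 0.22) and KLF8 by 0.38 (SE 0.12) at 3 h, and at 24 h KLF8 was lower by -0.55 and KLF12 by -0.53. Of 7 tested SP genes, at 3 h SP5, SP4 and SP2 were higher and SP1 was lower. SP5, a target of Wnt signalling, rose by 2.12 at 3 h (SE 0.50, edgeR adjusted p 0.00537), at the low level of 0.166 ± 0.046 to 0.737 ± 0.42 CPM (SD, n = 3 each). At 24 h SP5 was higher by 3.71 (SE 0.49, edgeR adjusted p 7.11e-05), from 0.373 ± 0.048 CPM (SD, n = 2) in control 24 h to 4.95 ± 1.47 CPM (SD, n = 3). SP4 rose by 0.70 at 3 h (SE 0.05) and SP2 by 0.46 (SE 0.06). The median change of the SP genes was 0.19 at 3 h and 0.05 at 24 h, and that of the other KLF genes -0.23 and -0.34, against 0.00 and 0.01 over all genes.

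Partners of KLF proteins, cofactors and enzymes that modify or degrade them, were listed with 17 genes, and all were tested. At 3 h 8 of 17 were called higher (background 16.8%), with a median log2 change of 0.20 over the list. FBXW7, a ubiquitin ligase subunit that marks KLF2 and KLF5 for turnover, rose from 51.3 ± 2.50 to 93.3 ± 3.85 CPM (SD, n = 3 each; 0.86, SE 0.05, edgeR adjusted p 1.18e-07). The acetyltransferase gene CREBBP rose by 0.58 (SE 0.04) and MEF2D, whose product drives KLF2 and KLF4 in endothelium, by 0.51 (SE 0.06). MEF2D was then called lower than the control at 6 h, 12 h and 24 h, and lower at 6 h than at 3 h. At 24 h 7 were higher (background 21.9%) and 3 lower (background 18.8%), with a median of 0.01. SIN3A, the corepressor bound by KLF9, KLF10, KLF11 and KLF13, was higher by 0.51 (SE 0.05, edgeR adjusted p 1.54e-05) and CTBP2, a corepressor bound by KLF3, by 0.39 (SE 0.05, edgeR adjusted p 3.25e-05), while the acetyltransferase gene KAT2B was lower (-0.59, SE 0.19, edgeR adjusted p 0.0254).

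Among genes known from other systems to respond to KLF proteins, 14 were listed and 13 tested. At 3 h 1 of 13 was called, against 31.6% of all genes, namely SMAD7, the inhibitor of TGF-beta signalling on which KLF10 and KLF11 act. SMAD7 had 14.7 ± 1.50 CPM in control 0 h and 3.06 ± 0.10 CPM at 3 h (SD, n = 3 each; log2 change -2.26, SE 0.14, edgeR adjusted p 2.12e-07), and was lower by -1.69 at 24 h (SE 0.15). At 24 h BCAT2, a target of KLF15 in amino acid catabolism, was the 1 gene called higher (background 21.9%), and SMAD7, ENG, LGALS3 and CCND1 were lower (4 of 13, background 18.8%). ENG, which KLF6 is known to activate, was lower by -1.20 (SE 0.32, edgeR adjusted p 0.00841) at a level of 0.827 ± 0.29 CPM (SD, n = 3), and LGALS3 by -0.92 (SE 0.22, edgeR adjusted p 0.00491). The median change over the 13 was 0.04 at 3 h and -0.42 at 24 h.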

How the data were processed

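Poly(A) RNA of 16 libraries was sequenced by the authors. For each library a table of transcripts was deposited, laid out as Salmon writes it. The submitters' processing notes name Salmon 1.3.0 and hg38, while the study's methods describe another route, alignment with STAR and gene counts. Its estimated counts, which share a read among transcripts, and its TPM values, scaled for transcript length to 1 total, are as deposited by the authors and cover 177456 transcripts. The effective transcript lengths deposited by the authors were used for the length offset. The authors' series-wide table of fold changes and p-values and its 16 columns of per-sample values were not used.

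Transcripts were joined to GENCODE 44 genes by identifier without version. Of them 165533 matched, and 2.92% to 3.17% of the reads per library were left out as unmatched. Estimated counts were summed per gene and rounded. The edgeR 4.0.16 quasi-likelihood test (R 4.3.3, two-sided) was run with all 6 groups in one fit, TMM factors from 0.947 to 1.05 and filterByExpr, which left 16705 genes. P-values were adjusted over all genes by the Benjamini-Hochberg method. SE is the log2 change divided by the square root of F. The scripts were tested on simulated data. Library totals were 23609727 to 33515398 reads. CPM and TPM are given as mean ± SD.

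The members, lists, tests and alternatives were chosen with earlier results of these data known. By the rule for named genes, every member is named, with up to 3 called genes of each list at 3 h and at 24 h. SP1, CCND1 and BCAT2, and the genes of the marker lists, were named outside it, after their values were seen. A further marker of the progenitor list is not reported here and is in none of its sums. Figures were drawn with matplotlib 3.10.9.

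Alternatives were DESeq2 1.42.0, RLE size factors, unscaled totals, no filter, a length offset, limma-trend (limma 3.58.1) on log2(TPM + 1) and log2(TPM + 0.1), the compared groups alone, the other control, a log2 threshold of 1, the replicate number as a block, and leaving out each library.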

Additional observations from a re-analysis of the deposited data

Results flagged for a closer look

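The effect of latrunculin B differed between 3 h and 24 h for 5 of the 10 KLF genes, the difference being tested directly in the edgeR fit. These 5 results came up because the same drug gave unequal changes at 2 times. The change at 24 h minus that at 3 h was -1.54 for KLF2 (SE 0.36, edgeR adjusted p 0.00684), -0.45 for KLF3 (SE 0.09, adjusted p 0.00266), -1.19 for KLF5 (SE 0.14, adjusted p 8.01e-05) and -0.63 for KLF6 (SE 0.17, adjusted p 0.0158), so each stood lower at 24 h against its control than at 3 h. For KLF4 it was 0.75 (SE 0.22, adjusted p 0.0203), a larger rise at 24 h. Of all genes tested 27.9% were called in this contrast. The 2 effects have different controls, control 0 h and control 24 h. Between these controls KLF2 differed by 0.59 (SE 0.27), which enters its difference in full. For KLF2 the call was lost with an offset for transcript length (-1.504, adjusted p 0.0736) and with limma-trend on log2(TPM + 1) (-0.77, adjusted p 0.0618) or log2(TPM + 0.1) (-1.35, adjusted p 0.0766), and for KLF4 in 7 of 20 alternatives. No single library was tested for standing apart, since groups held 2 or 3.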

How the results depend on the processing

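Of 1260 combinations of a KLF gene, a comparison and an alternative, the log2 threshold aside, 1120 kept the direction and the side of the threshold, 64 lost the call, 20 gained one and 0 turned a called direction. Another 56 changed sign without being called either way. With the added threshold of 1 on the log2 change, the number of the 10 genes called was 2 at 3 h, 1 at 6 h, 2 at 12 h, 1 at 24 h, 0 from 3 h to 6 h, 1 from 6 h to 24 h and 2 for the difference between 24 h and 3 h. With the length offset and with limma-trend on log2(TPM + 1) or log2(TPM + 0.1), 3 genes were called at 24 h and 3 for that difference. Leaving out 1 library gave 5 to 6 genes at 3 h, 6 to 8 at 6 h, 4 to 7 at 12 h, 2 to 5 at 24 h, 0 between controls, 5 from 3 h to 6 h, 5 to 6 from 6 h to 24 h and 3 to 5 for the difference; a lone library left in a group was assumed to vary like the others. The causes were not tested.

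Samples with the same replicate number did not deviate together. Deviations of samples with the same number correlated from -0.241 to 0.116 over 36 pairs (median -0.0231), and with different numbers from -0.137 to 0.241 over 70. The deviations were taken from group means, so in a group of 2 libraries they mirror each other. These correlations therefore cannot tell whether samples shared a differentiation. With the replicate block 6 genes were called at 3 h, 9 at 6 h, 5 at 12 h and 5 at 24 h. Without the block these counts were 6, 8, 5 and 5, with 31.6%, 43.3%, 35.8% and 40.8% of all genes called. The counts compare the fit with and without the block and are no test of the family. KLF6 at 6 h (adjusted p 0.0390) and KLF10 at 24 h (adjusted p 0.0326) gained a call, and KLF15 at 24 h lost it (adjusted p 0.0733).

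Over all genes, the log2 threshold left 614 of 5271 calls at 3 h, 1033 of 7230 at 6 h, 1266 of 5988 at 12 h, 1213 of 6809 at 24 h, 7 of 42 between controls, 298 of 3710 from 3 h to 6 h, 865 of 6323 from 6 h to 24 h and 960 of 4665 for the difference. At 12 h, limma-trend on log2(TPM + 0.1) gave 3981 and the compared groups alone 2828. At 24 h, 4034 remained without control 24 h replicate 1. Between controls the count ran from 2 to 248 (DESeq2). From 3 h to 6 h the length offset gave 2031 and limma-trend 1751 and 1788, and for the difference these gave 2975, 2941 and 2940, with 3012 without control 24 h replicate 1. Without scaling the share of higher genes among all calls was 36.1% in place of 53.3% at 3 h, 37.7% in place of 52.8% at 6 h, 73.8% in place of 50.1% from 6 h to 24 h and 69.0% in place of 52.1% for the difference, and the median of all genes shifted by 0.13 and 0.10 in the last 2. Depth limits KLF2 most, with 20 reads in its lowest library.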

Other observations

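Genes whose transcription follows the state of actin, the protein that latrunculin B binds, were lower than in the controls. All 10 of the listed YAP and SRF targets (CCN1, CCN2, ANKRD1, AMOTL2, SRF, VCL, ACTB, ACTG1, TAGLN and MYL9) were lower at 3 h, 6 h and 12 h, with median log2 changes of -0.80, -1.16 and -1.74, and 8 of 10 were lower at 24 h with a median of -1.30. Of all genes 14.7%, 20.4%, 16.8% and 18.8% were lower at these 4 times. At 3 h CCN2 fell by 4.19 (SE 0.35, edgeR adjusted p 1.73e-06) and ANKRD1 by 3.53 (SE 0.26, edgeR adjusted p 6.21e-07), while CCN1 went from 80.4 ± 2.65 to 5.03 ± 0.76 CPM (SD, n = 3 each; edgeR adjusted p 2.78e-06). From 6 h to 24 h 7 of them rose (19% of all genes) and 2 fell (18.9% of all genes). The 2 that fell were TAGLN and MYL9, named after their values were seen.

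KLF9 and KLF15 are known in other tissues to respond to glucocorticoid and to the clock. Of 8 other genes that do so, 5 were higher at 3 h (16.8% of all genes) and DUSP1 was lower (14.7% of all genes), with a median of 1.14. SGK1, a kinase of ion transport, rose from 95.8 ± 5.24 to 401.6 ± 31.5 CPM (SD, n = 3 each; log2 change 2.07, SE 0.27, edgeR adjusted p 6.72e-05), the glucocorticoid receptor gene NR3C1 rose by 2.05 (SE 0.29, edgeR adjusted p 0.000132) and TSC22D3 by 1.17 (SE 0.08, edgeR adjusted p 4.06e-07). At 24 h, when 21.9% of all genes were higher and 18.8% lower, FKBP5 was higher by 0.81 (SE 0.20), DUSP1 fell by 0.83 (SE 0.13) and PER2 fell by 0.70 (SE 0.17). KLF9 was not called at 3 h (-0.30, SE 0.15) and was lower from 6 h on, and KLF15 had a change of 0.08 (SE 0.17) at 3 h.

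Of 12 immediate early genes, DUSP1 again among them, 11 were tested. At 3 h 5 were higher (16.8% of all genes) and DUSP1 was lower (14.7% of all genes), with a median of 0.31. EGR2 rose by 3.34 (SE 0.65, edgeR adjusted p 0.00154), from 0.0943 ± 0.069 to 0.960 ± 0.30 CPM (SD, n = 3 each), ATF3 by 1.61 (SE 0.10, edgeR adjusted p 2.63e-07) and EGR3 by 1.37 (SE 0.44, edgeR adjusted p 0.0298). At 24 h 5 were higher (21.9% of all genes) and DUSP1 was lower (18.8% of all genes), with a median of 0.58, and EGR3 (1.85, SE 0.51), ATF3 (1.20, SE 0.12) and EGR1 (1.02, SE 0.20) had the largest rises. EGR3 stayed under 1 CPM in these group means, with 0.247 CPM in control 0 h and 0.657 CPM at 3 h of drug. It had 0.209 CPM in control 24 h and 0.770 CPM at 24 h of drug.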
